A study of Homo sapiens with 6 samples.

Results

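The genes described here are 10 genes that NRF2 controls or that hold back ferroptosis: NQO1, HMOX1, GCLC, GCLM, SLC7A11, TXNRD1, FTH1, FTL, GPX4 and AIFM2. They were chosen by name, and all 10 were found among the 61806 genes of the gene count table. They were measured in HK2 cells, an established line of human kidney proximal tubule epithelium, 48 hours after a FLAG-VMP1 plasmid was introduced (VMP1 is an endoplasmic reticulum protein needed to build autophagosomes). The 2 groups were 3 libraries of total cell lysate and 3 libraries of RNA immunoprecipitated with FLAG antibody beads, and both came from transfected cells. Polyadenylated RNA was sequenced in each. No pull-down of untransfected cells was analysed here, and differences are all relative to lysate. The treatment labels number the plasmid from VMP1 to VMP6 across the samples, while the titles name VMP1 for each immunoprecipitate, and the titles were used. Separate cultures are not stated, and the p-values then cover only the spread between these libraries, which may be technical.

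NRF2 (gene NFE2L2) is a transcription factor that KEAP1 keeps at a low level by directing its breakdown. Oxidants and electrophiles block KEAP1, and NRF2 then pairs with small MAF proteins and binds antioxidant response elements near genes of glutathione synthesis, quinone reduction, thioredoxin recycling, haem breakdown and iron storage. Ferroptosis is a form of cell death driven by iron and by peroxidised membrane lipids. Cells hold it back by importing cystine for glutathione, by reducing lipid peroxides with GPX4, by recycling coenzyme Q with AIFM2 (also known as FSP1) and by storing iron in ferritin. Kidney tubule epithelium is known for its sensitivity to this form of death in acute kidney injury.

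The antioxidant response element is what the NRF2 targets among these genes are known to share, so the promoter windows were searched for its core. The RefSeq promoter table (GRCh38.p14) holds 10 windows for 7 of the 10 genes, NQO1, GCLC, GCLM, TXNRD1, FTL, GPX4 and AIFM2, and HMOX1, SLC7A11 and FTH1 were not matched. Each window runs from 250 bases before a transcription start to 50 after it. The core TGACNNNGC was searched on both strands, and 4 of the 10 windows held it, against 13.3% of 35116 windows of the same length. Those windows belong to GCLM, to TXNRD1 (2 starts) and to AIFM2. The matches are shown with 10 bases on each side, 5′ to 3′ on the strand of the gene, with the match in capitals. In the first TXNRD1 stretch the match reads along the gene's strand, and in the others it lies on the opposite strand, so its reverse complement is shown.
GCLM, 34 bases before the start, chr1:93909446-93909474, minus strand: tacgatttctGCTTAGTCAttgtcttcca
AIFM2, 22 bases before the start, chr10:70132829-70132857, minus strand: cagcacgagtGCTGAGTCAcgccccgccc
TXNRD1, 99 bases before its first start, chr12:104215670-104215698, plus strand: acacgggctaTGACTTCGCtgttgtcacc
TXNRD1, 8 bases before the same start, chr12:104215761-104215789, plus strand: gcgtccttcgGCTCCGTCAgttcccacag
TXNRD1, 102 bases before its downstream start, chr12:104286920-104286948, plus strand: gtggatttctGCTTTGTCAttctgactct
The 3 genes with a match are an enzyme subunit of glutathione synthesis, a coenzyme Q reductase and a thioredoxin reductase. No match in the other windows says only that these letters are not in those bases, and a match is a description of the sequence.

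Gene counts summed to between 77753608 and 92948069 per lysate and between 54363555 and 59293096 per immunoprecipitate. The library labelled FLAG immunoprecipitate 2 stood apart from the other immunoprecipitates in its VMP1 level. VMP1, the transfected gene, was at 302 ± 4.25 CPM (counts scaled to a fixed library total; SD, n = 3) in lysate, against 2347 and 2685 CPM in FLAG immunoprecipitates 1 and 3, but at 274 CPM in the library labelled 2. Of 15 markers of kidney tubule epithelium, 7 were above both other immunoprecipitates there, near the 45.0% of all tested genes. PAX8, EPCAM, CDH2 and CDH6 were at 0.220, 0.198, 0.194 and 0.186 times their lysate mean in that library, while the tubule list's keratin gene KRT7 was at 7.62 times and its brush border peptidase gene ANPEP at 18.4 times, and the collagen gene COL5A1, a fibroblast marker, at 57.4 times. These are single genes. The median shift from the lysate mean in that library was 0.51 (log2 CPM) over 14 fibroblast markers and -2.15 over 15 tubule markers. Its VMP1 level was thus unlike that of immunoprecipitates 1 and 3, and the reason was not tested. The labels do not state what VMP1 RNA level a pull-down should have. The tests of the 10 genes are given with and without the library labelled 2. Immunoprecipitate 3 was out of line in another way, with a count for 21405 genes. That number was 26224 and 27430 in immunoprecipitates 1 and 2, and 26944 to 27386 in the lysates. The reason was not tested. In the lysates, the tubule markers PAX8 and CDH6 were at 300.4 and 1438 CPM, whereas CUBN and AQP1, defining genes of the mature proximal tubule, stayed under 1 CPM. The brush border enzyme gene GGT1, of the same list, was not low in lysate, and its values are given below. Markers of other cell types were present too: the summed level of 14 fibroblast markers was 524 to 549 CPM in the lysates and 122, 1456 and 135 CPM in immunoprecipitates 1, 2 and 3, and that of 15 neutrophil markers was 374 to 642 CPM against 125, 472 and 19.7 CPM. COL1A2 was at 0 in immunoprecipitates 1 and 3. The summed level of 9 erythroid markers was not lower in this way, at 118 to 318 CPM in the lysates and 288, 128 and 253 CPM in immunoprecipitates 1, 2 and 3. Of these 9, 6 stayed under 1 CPM in every library. The summed level of 15 tubule markers was 3404 to 3638 CPM in the lysates and 1757, 2403 and 1792 CPM in the immunoprecipitates. The part of these markers in the values below was not tested. In these bulk libraries fewer cells of a type, less RNA per cell and lower recovery of an RNA in the pull-down cannot be told apart.

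The order of the 10 genes in lysate ran from iron storage at the top to cystine import at the bottom. Levels between genes were compared on the deposited FPKM scale, which is per kilobase. FTL, the ferritin light chain, was highest at 2618 ± 108 FPKM (SD, n = 3), followed by FTH1, the ferritin heavy chain, at 538 ± 5.14 FPKM. GPX4 followed at 94.0 ± 4.67 FPKM, then TXNRD1 at 79.1 ± 0.91 FPKM. HMOX1 was at 28.6 ± 1.13 FPKM, NQO1 at 23.2 ± 0.78 FPKM and GCLM at 10.7 ± 0.25 FPKM. GCLC, at 4.83 ± 0.23 FPKM, and AIFM2, at 4.57 ± 0.08 FPKM, were the one neighbouring pair whose ranges overlapped. SLC7A11 was lowest at 2.29 ± 0.33 FPKM. In the immunoprecipitates FTL and FTH1 kept the first 2 ranks in each library, and from GPX4 downward every neighbouring pair but HMOX1 and GCLM overlapped.

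The comparison of immunoprecipitate with lysate addresses which RNAs came down with FLAG-VMP1 more or less than their share of lysate. Over all 6 libraries, 0 of the 10 genes were called by edgeR's quasi-likelihood test at an adjusted p below 0.05, where 0.660% of all 20593 tested genes were called (0.160% higher and 0.500% lower). At an unadjusted p below 0.05 there were 3, GCLM, FTL and HMOX1, against 21.3% of all tested genes, and DESeq2 called FTL and GCLM lower, where it called 11.4% of the 22205 genes with an adjusted p (7.02% higher and 4.33% lower). The median log2 fold change of the 10 was -0.41, and that of all tested genes was 0.06. All 3 immunoprecipitates lay below every lysate for 3 genes, FTL, HMOX1 and GCLM, and above for 1, FTH1, against 17.7% and 13.4% of all tested genes and 31.1% for either side. Without the library labelled FLAG immunoprecipitate 2, 7 of the 10 fell and 0 rose, where 51.1% of 22062 tested genes were called, 27.2% lower and 23.9% higher, and the median was -0.98 against -0.06 over all tested genes. All 10 genes passed the expression filter in both fits.

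**Figure D1:**
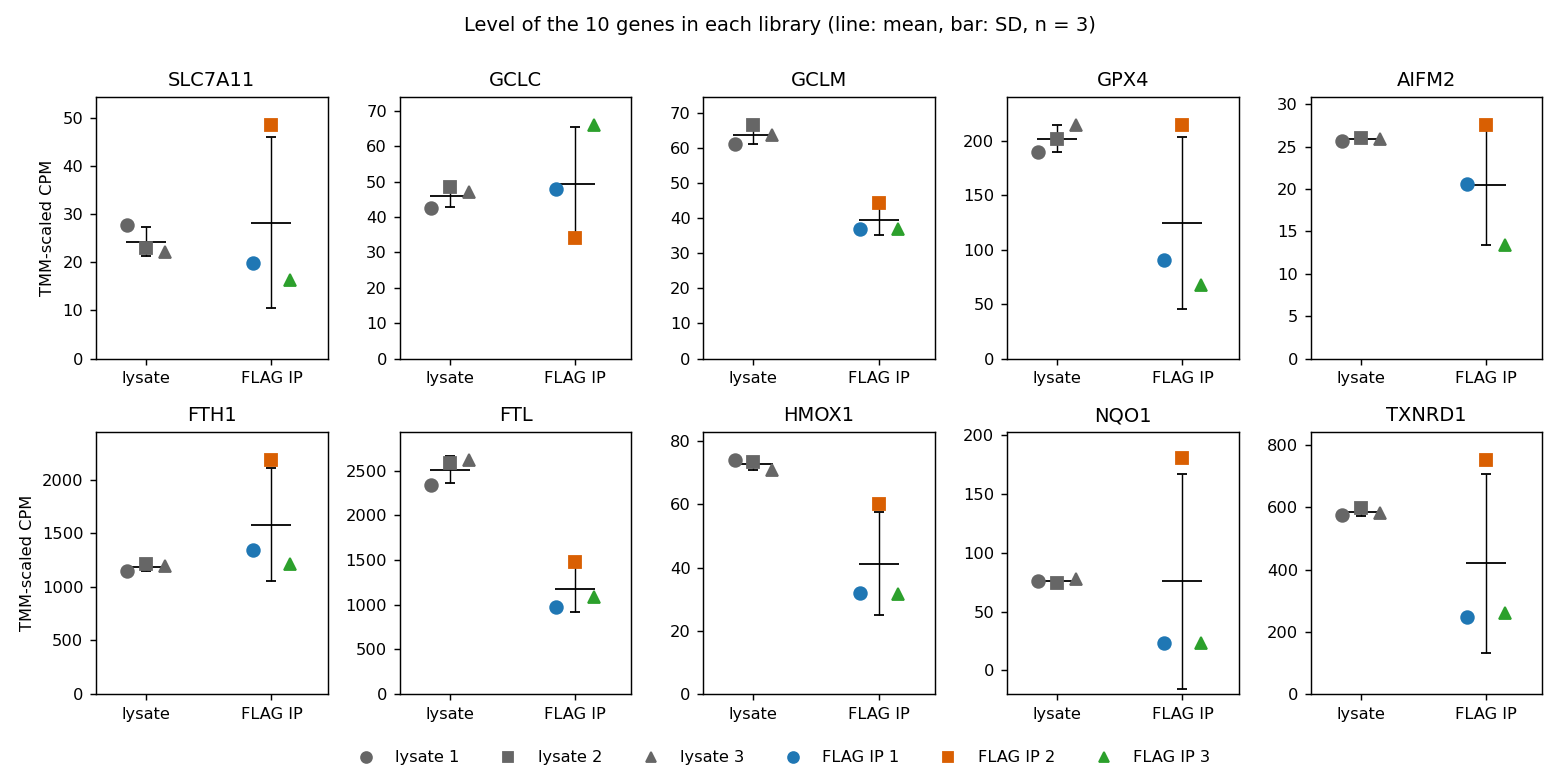
Level of each of the 10 genes (TMM-scaled CPM, linear axes) in the 3 lysates (grey) and the 3 FLAG immunoprecipitates (coloured), with the mean (line) and SD (bar) of each group, n = 3. The orange square is the library labelled FLAG immunoprecipitate 2, which is the highest immunoprecipitate for each gene but GCLC.

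Cystine import and glutathione synthesis did not move as a block. SLC7A11, the transporter subunit that exchanges glutamate for cystine (ENSG00000151012, GRCh38.p14 chromosome 4, 138164097 to 138242349), measured 27.7, 23.0 and 22.2 CPM across lysates 1 to 3, against 19.8, 48.5 and 16.3 CPM across immunoprecipitates 1 to 3. Immunoprecipitates 1 and 3 were below every lysate, and the library labelled 2 was above all of them. Its fold change was 0.21 (log2, SE 0.44, edgeR adjusted p = 0.808), and without the library labelled 2 it turned to -0.42 (SE 0.16, edgeR adjusted p = 0.0646), so neither fit called it. Its partner chain SLC3A2, named for that role and not by its p, which carries it to the cell surface, was at 44.9, 236 and 41.2 CPM in the immunoprecipitates against 47.5 CPM on average in lysate.

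GCLC, the catalytic subunit of glutamate-cysteine ligase, which makes the first step of glutathione synthesis (ENSG00000001084, chromosome 6, 53497341 to 53616970), measured 42.4, 48.6 and 47.0 CPM across lysates 1 to 3, against 48.0, 34.0 and 66.1 CPM across immunoprecipitates 1 to 3. The groups overlapped, and GCLC was the one gene of the 10 for which the library labelled 2 was the lowest immunoprecipitate. GCLC differed by 0.10 (log2, SE 0.27, edgeR adjusted p = 0.853), or 0.32 (SE 0.14; 0.106 as edgeR's adjusted p) once that library was left out. GCLM, the modifier subunit that raises the enzyme's efficiency (ENSG00000023909, chromosome 1, 93885199 to 93909456), measured 61.0, 66.6 and 63.6 CPM across lysates 1 to 3, against 37.0, 44.4 and 36.9 CPM across immunoprecipitates 1 to 3. Every immunoprecipitate was below every lysate, including the library labelled 2. On the log2 scale the difference was -0.69 (SE 0.17, edgeR adjusted p = 0.110), and GCLM fell by 0.77 on the log2 scale (SE 0.07, edgeR adjusted p = 1.62e-04) without the library labelled 2. Its spread between immunoprecipitates was narrow, at 39.4 ± 4.31 CPM (SD, n = 3).

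The ratio of the subunits of this enzyme was compared within libraries, where scaling plays no part. GCLC counts per GCLM count were 0.695, 0.730 and 0.739 in the lysates and 1.30, 0.766 and 1.79 in the immunoprecipitates. All 3 immunoprecipitates had the higher ratio, and the library labelled 2 only just so. The difference was 0.75 on the log2 scale, with an exact two-sided permutation p of 0.1, the smallest that 3 against 3 libraries allow, and it was 0.47 without immunoprecipitate 3.

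The enzymes that act on lipid peroxides separated the libraries. GPX4, the selenoprotein that reduces phospholipid hydroperoxides with glutathione (ENSG00000167468, chromosome 19, 1103994 to 1106779), was at 190 CPM in lysate 1, 202 CPM in lysate 2 and 215 CPM in lysate 3. It was at 90.2, 215 and 67.9 CPM in immunoprecipitates 1 to 3. Immunoprecipitates 1 and 3 were far below the lysates, and the library labelled 2 matched the highest lysate. Over all libraries the fold change was -0.70 (log2, SE 0.44, edgeR adjusted p = 0.403), and GPX4 fell by 1.34 on the log2 scale (SE 0.13, edgeR adjusted p = 2.60e-04) without the library labelled 2. AIFM2, the reductase that keeps coenzyme Q able to trap lipid radicals (ENSG00000042286, chromosome 10, 70098223 to 70132934), measured 25.7, 26.0 and 25.9 CPM across lysates 1 to 3, against 20.6, 27.6 and 13.4 CPM across immunoprecipitates 1 to 3. The lysates were nearly equal, immunoprecipitates 1 and 3 lay below them, and the library labelled 2 lay above. AIFM2 differed by -0.34 (log2, SE 0.29, edgeR adjusted p = 0.539) and fell by 0.60 on the log2 scale (SE 0.18, edgeR adjusted p = 0.0362) without the library labelled 2. The gene MACROH2A2 overlaps it on the opposite strand over 14060 bases and had 188% to 190% as many counts in the lysates and 168%, 66.2% and 277% in immunoprecipitates 1 to 3, so AIFM2 counts are uncertain where strand was not used in counting.

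The ferritin chains parted: FTL lay below every lysate in each immunoprecipitate, and FTH1 did not. FTL, the light chain that helps form the iron core (ENSG00000087086, chromosome 19, 48965309 to 48966879), measured 2339, 2584 and 2620 CPM across lysates 1 to 3, against 973, 1479 and 1090 CPM across immunoprecipitates 1 to 3. No immunoprecipitate came near a lysate. The log2 fold change was -1.09 (SE 0.24), the lowest p of the 10 genes but above the threshold (edgeR adjusted p = 0.101), and FTL fell by 1.27 on the log2 scale (SE 0.07, edgeR adjusted p = 2.95e-05) without the library labelled 2. FTH1, the heavy chain that oxidises iron for storage (ENSG00000167996, chromosome 11, 61959718 to 61967634), measured 1145, 1218 and 1200 CPM across lysates 1 to 3, against 1346, 2186 and 1218 CPM across immunoprecipitates 1 to 3. Immunoprecipitate 3 and lysate 2 had the same level to the nearest whole CPM, and the library labelled 2 was well above the rest. FTH1 differed by 0.41 (log2, SE 0.28, edgeR adjusted p = 0.432), and 0.12 (SE 0.05, edgeR adjusted p = 0.0918) without the library labelled 2.

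FTH1 counts depend on how reads were assigned between overlapping genes. BEST1, a chloride channel gene of the retina, lies on the opposite strand and overlaps FTH1 over 4744 bases in the annotation of the files. BEST1 held 14.8%, 14.1% and 14.4% as many counts as FTH1 in the lysates, 14.5% in the library labelled 2 and 18.1% in immunoprecipitate 3, but 0.286% in immunoprecipitate 1. Summed, the 2 genes were at 1314, 1390 and 1372 CPM across lysates 1 to 3, against 1350, 2501 and 1439 CPM in the immunoprecipitates. Immunoprecipitate 1 then lay among the lysates, so the groups no longer stood apart. The sum differed by 0.38 (log2, SE 0.30, edgeR adjusted p = 0.497). Processed copies add to this uncertainty: 16 named FTH1 pseudogenes together had 0.854% to 1.70% as many counts as FTH1, and 6 FTL pseudogenes had 0.121% to 0.265% as many as FTL.

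Within each library, FTH1 counts per FTL count were 0.490, 0.471 and 0.458 in the lysates and 1.38, 1.48 and 1.12 in the immunoprecipitates. The library labelled 2 did not stand apart here, and no immunoprecipitate overlapped a lysate. The ratio in the immunoprecipitates was 2.79 times that in lysate, a difference of 1.48 on the log2 scale, with an exact two-sided permutation p of 0.1, the smallest this design allows. With BEST1 counts added to FTH1, a choice made after seeing the data, the ratios were 0.562, 0.538 and 0.524 against 1.39, 1.69 and 1.32, a difference of 1.43.

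HMOX1, the stress-induced haem oxygenase that breaks haem into iron, carbon monoxide and biliverdin (ENSG00000100292, chromosome 22, 35380361 to 35394214), measured 74.0, 73.3 and 70.8 CPM across lysates 1 to 3, against 32.0, 60.2 and 31.6 CPM across immunoprecipitates 1 to 3. Each immunoprecipitate was below each lysate. HMOX1 differed by -0.82 (log2, SE 0.29, edgeR adjusted p = 0.196), and it fell by 1.18 on the log2 scale (SE 0.07, edgeR adjusted p = 2.95e-05) without the library labelled 2. Macrophages are known for high HMOX1 and ferritin, and the summed level of 14 monocyte and macrophage markers was 293 to 346 CPM in the lysates and 81.4, 269 and 52.9 CPM in the immunoprecipitates. Of these markers 4 stayed under 1 CPM in every library, C1QA and C1QB among them, and CD68, also a general lysosomal gene, held 173 to 176 CPM in the lysates. The part of these markers in the HMOX1 and FTL values was not tested.

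NQO1 and TXNRD1, the reductases among the NRF2 targets, were low in immunoprecipitates 1 and 3 and highest of all in the library labelled 2. NQO1, which reduces quinones by 2 electrons at once (ENSG00000181019, chromosome 16, 69706996 to 69726584), measured 76.2, 74.6 and 77.5 CPM across lysates 1 to 3, against 23.0, 181 and 23.2 CPM across immunoprecipitates 1 to 3. Immunoprecipitates 1 and 3 were 3.31-fold and 3.28-fold below the lysate mean, and the library labelled 2 was at 2.38 times that mean. The mean over the immunoprecipitates, 75.7 ± 91.2 CPM (SD, n = 3), thus hid the pattern: over all libraries it differed by -0.01 in log2 (SE 0.83, edgeR adjusted p = 0.997), with a sign that turned positive under other scalings. It was -1.71 (SE 0.07, edgeR adjusted p = 1.04e-05) without the library labelled 2. TXNRD1, the selenoprotein that recycles cytosolic thioredoxin (ENSG00000198431, chromosome 12, 104215779 to 104350307), measured 576, 598 and 581 CPM across lysates 1 to 3, against 248, 752 and 259 CPM across immunoprecipitates 1 to 3. The same libraries were low and high as for NQO1. TXNRD1 differed by -0.48 (log2, SE 0.46, edgeR adjusted p = 0.585), and -1.19 (SE 0.05, edgeR adjusted p = 1.09e-05) without the library labelled 2. RPL18AP3, a ribosomal protein pseudogene inside TXNRD1 on the same strand, held 3.99% to 5.66% as many counts.

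**Figure D2:**
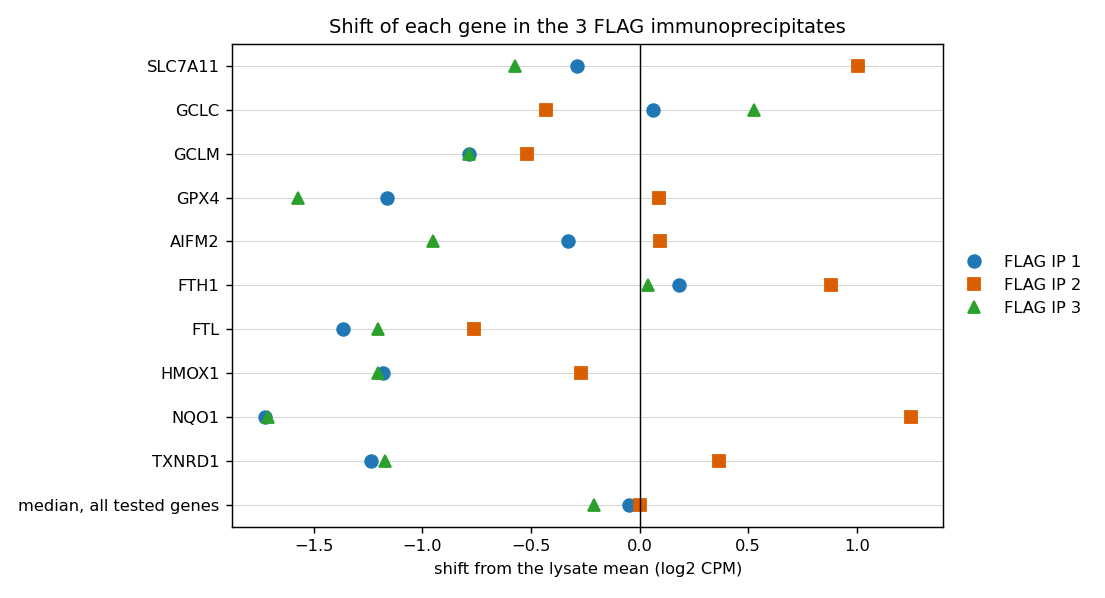
Shift of each gene from its lysate mean (log2 CPM, horizontal axis) in the 3 FLAG immunoprecipitates, with the median over all tested genes in the bottom row. Immunoprecipitates 1 (circles) and 3 (triangles) lie close together for most genes, with wider gaps for AIFM2 (0.62), GCLC (0.46) and GPX4 (0.41). The library labelled 2 (squares) lies to their right for each gene but GCLC.

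Immunoprecipitates 1 and 3 gave nearly the same shift for most of the genes. The absolute gap between them had a median of 0.15 over the 10 genes on the log2 scale, from 0.0017 for GCLM to 0.62 for AIFM2, and a median of 0.32 over all tested genes. These medians were not matched for level. The 10 genes had at least 854 counts in each library, and all tested genes include some with fewer. The library labelled 2 lay above the mean of the other immunoprecipitates by a median of 0.85 over the 10 genes and of 0.13 over all tested genes. It was above both of them for 9 of the 10 genes, against 45.0% of all tested genes. The largest such gap was 2.97 for NQO1, followed by 1.57 for TXNRD1, 1.46 for GPX4 and 1.44 for SLC7A11, and for GCLC it was -0.73. For NQO1, TXNRD1, GPX4 and SLC7A11, 1 library thus set much of the fold change over 6 libraries.

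**Figure D3:**
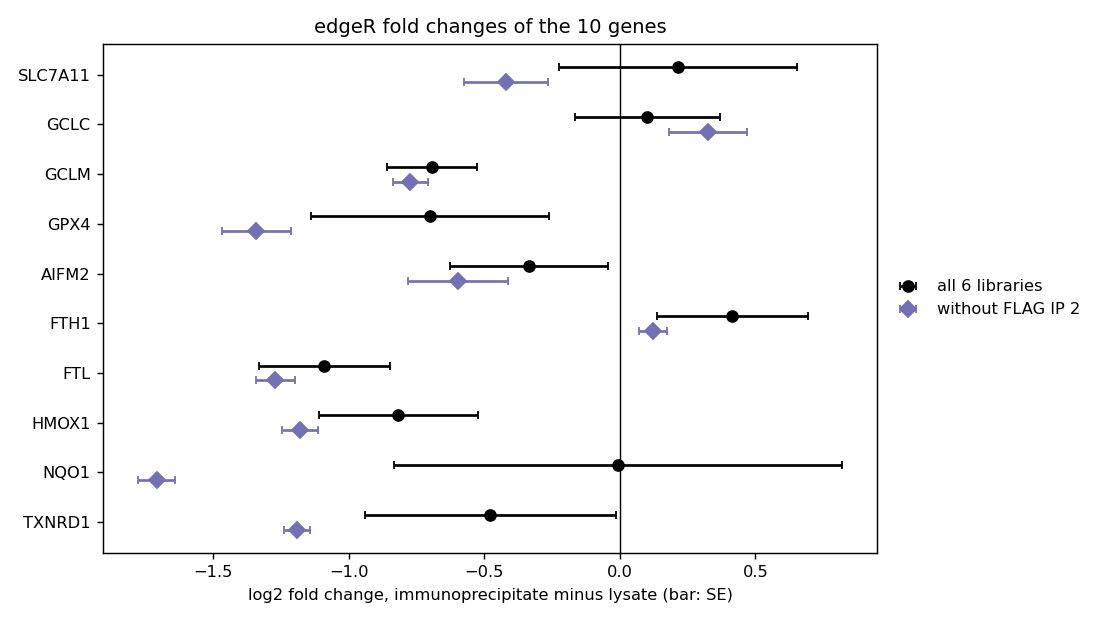
edgeR log2 fold change of each gene, immunoprecipitate minus lysate (horizontal axis, bars are SE), over all 6 libraries (black circles) and without the library labelled FLAG immunoprecipitate 2 (purple diamonds). NQO1 moves from -0.01 to -1.71, and the sign of SLC7A11 turns.

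The genes most alike in pattern were found by distance. Likeness was the root mean square difference of the shifts over the 6 libraries, searched among the 12300 genes that averaged 5 CPM or more. INCENP was nearest to NQO1 (0.064), CCDC71 to TXNRD1 (0.0093), XAB2 to HMOX1 (0.042), RPE to GCLM (0.035) and CCNI to FTL (0.059). LRRC37BP1 was nearest to GCLC (0.042), SRA1 to SLC7A11 (0.058), TNFRSF10B to FTH1 (0.058), COL16A1 to GPX4 (0.056) and UBFD1 to AIFM2 (0.049). None of the 10 was another's nearest gene. Among themselves TXNRD1 and GPX4, both selenoproteins, were the closest pair (0.205), then HMOX1 and GPX4 (0.223), and NQO1 and GCLC were the farthest apart (1.36). All of these distances share the same 6 libraries and the same lysate means.

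Transcript counts placed most of each gene on coding transcripts, except for FTH1 in immunoprecipitate 3. The table held 70 transcripts of the 10 genes, from 1 for FTL to 16 for TXNRD1. Transcript usage was tested with diffSpliceDGE, and 0 of the 10 genes were called over all 6 libraries, where 2.32% of 11671 genes were; SLC7A11 and FTL could not be tested, with under 2 transcripts past the filter. At an unadjusted p below 0.05 there were also 0, against 985 of all genes tested. Without the library labelled 2, usage of FTH1 (adjusted p = 3.19e-04) and GPX4 (adjusted p = 0.0358) was called, where 11.8% of 12562 genes were.

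FTH1 usage was out of line in 1 library. The coding transcript ENST00000273550 (4 exons, 1203 nt) took 57.3%, 63.6% and 60.4% of FTH1 counts in the lysates and 75.0%, 65.4% and 22.3% in the immunoprecipitates. In immunoprecipitate 3, ENST00000532829, annotated for nonsense-mediated decay, took 50.2%, against 7.73% to 12.04% in the lysates. Immunoprecipitate 3 alone was low in coding share, at 22.5% of FTH1 counts, while the other libraries lay between 67.8% and 77.7%. Immunoprecipitates 1 and 3 therefore moved in opposite directions, and these are also the libraries in which BEST1, as a share of FTH1, differed most from the lysates.

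The 2 coding transcripts of GPX4 named here have 7 exons each and end at the same base, but start at 1103994 and 1104052. They may leave little sequence to tell them apart, and the split of counts is an estimate by the authors' software. ENST00000611653 (793 nt) took 63.8%, 55.0% and 74.0% of GPX4 counts in the lysates and 27.3%, 44.6% and 24.5% in the immunoprecipitates, with no overlap between the groups. ENST00000354171 (851 nt), which starts further upstream, took 28.1%, 38.0% and 3.93% in the lysates and 66.4%, 38.8% and 43.7% in the immunoprecipitates. The lysates themselves differed widely in this share, and the library labelled 2 was barely above lysate 2. Usage of GPX4 had an adjusted p of 1.00 over all 6 libraries.

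TXNRD1 and AIFM2 show how far such shares varied between replicates. The TXNRD1 transcript ENST00000526390 took 0.88% and 1.64% of its counts in lysates 1 and 3 and 43.8% in lysate 2. ENST00000503506 took 15.0%, 11.7% and 29.3% in the lysates and 61.3%, 27.0% and 89.2% in the immunoprecipitates, and the groups overlapped. For AIFM2, ENST00000307864 took 78.3% to 90.7% in the lysates, 78.3% and 72.1% in immunoprecipitates 1 and 2 and 0% in immunoprecipitate 3, where ENST00000613322 took 79.7%. These transcripts share most of their exons, so the split of counts between them is an estimate by the authors' software.

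**Figure D4:**
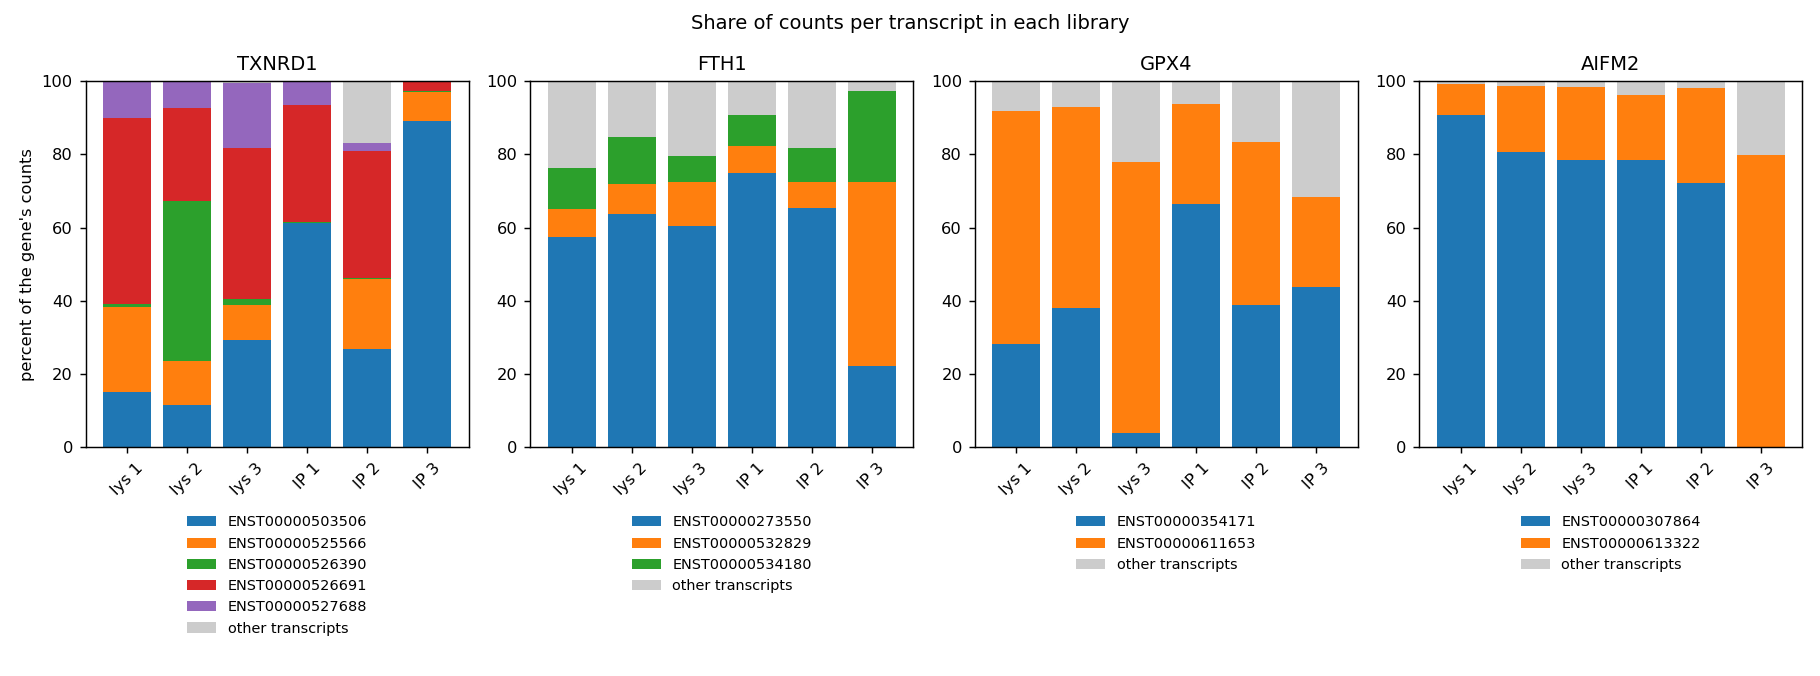
Share of each gene's counts (percent, stacked bars) on its named transcripts in the 3 lysates (lys) and 3 FLAG immunoprecipitates (IP), for TXNRD1, FTH1, GPX4 and AIFM2; grey is all other transcripts. Lysate 2 stands out for TXNRD1, and immunoprecipitate 3 for FTH1 and AIFM2.

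The wider pathway was followed in 9 lists of 132 further genes, some of them in more than 1 list, of which 130 were found and 126 tested over all 6 libraries. Of these, 0 rose and 1 fell, EPHX1, an epoxide hydrolase that NRF2 induces. EPHX1 was at 220 ± 9.96 CPM in lysate (SD, n = 3) and at 57.9, 74.7 and 60.8 CPM in the immunoprecipitates, or -1.77 in log2 (SE 0.18, adjusted p = 0.0328 by edgeR). Leaving out a lysate, immunoprecipitate 1 or immunoprecipitate 3 ended this call, with edgeR adjusted p of 0.147 to 0.363. Without the library labelled 2, 89 of 127 fell and 15 rose, where 27.2% of all 22062 tested genes fell and 23.9% rose. The same shares of all tested genes apply to each list count without that library below.

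Regulators of NRF2 had a median log2 fold change of -0.28 over all 6 libraries. Of these, 1 of 12 had an unadjusted edgeR p below 0.05, against 21.3% of all tested genes. Their median shift was -0.61, 0.28 and -0.40 in immunoprecipitates 1, 2 and 3, so the library labelled 2 went against the others. NFE2L2, which encodes NRF2 itself, was at 181 ± 3.51 CPM in lysate (SD, n = 3) and at 145, 146 and 148 CPM in the immunoprecipitates, all of them below the lysates and close together (log2 fold change -0.31, SE 0.15, edgeR adjusted p = 0.289). The kinase gene GSK3B, which marks NRF2 for breakdown, averaged 210.1 CPM in lysate, against 147, 119 and 165 CPM. MAFG, a small MAF partner of NRF2, averaged 51.0 CPM in lysate, against 79.6, 50.0 and 82.0 CPM. KEAP1, chosen after its values were seen as the sensor of the pathway, was at 45.9, 102 and 47.0 CPM against 79.2 CPM in lysate. Without the library labelled 2, 8 of the 12 regulators fell and 1 rose.

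Other NRF2 targets had a median of -0.43, and 11 of 28 had an unadjusted p below 0.05, against 21.3% of all tested genes. ABCC3, an export pump for glutathione and glucuronide conjugates, averaged 64.3 CPM in lysate, against 41.3, 40.5 and 39.3 CPM in the immunoprecipitates (edgeR adjusted p = 0.101). PGD, an enzyme of the pentose phosphate route that makes NADPH, averaged 214 CPM in lysate, against 63.1, 126 and 73.1 CPM (edgeR adjusted p = 0.103). In ABCC3 as in EPHX1 the library labelled 2 lay close to the other immunoprecipitates. Without it, 22 of 29 targets fell and 2 rose. Of the 30 listed targets, 3, 0 and 5 had no count in immunoprecipitates 1, 2 and 3, against 1 in each lysate. SRXN1, chosen after its values were seen, was at 57.0 to 64.4 CPM in lysate. It was at 31.6, 112 and 0 CPM in immunoprecipitates 1 to 3.

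Genes of glutathione synthesis and use had a median of -0.04 over all 6 libraries and -0.77 without the library labelled 2, where 10 of 15 fell and 2 rose. GGT1, which breaks down extracellular glutathione and is a tubule brush border enzyme, averaged 226 CPM in lysate, against 79.5, 47.0 and 81.9 CPM in the immunoprecipitates (log2 fold change -1.70, edgeR adjusted p = 0.0546). GPX3, the secreted peroxidase made by the kidney, averaged 68.4 CPM in lysate, against 14.1, 31.6 and 15.8 CPM (edgeR adjusted p = 0.0880). LANCL1, a glutathione-binding protein, averaged 95.8 CPM in lysate, against 37.5, 59.0 and 30.2 CPM.

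Iron handling genes had a median of -0.32, and -0.81 without the library labelled 2, where 13 of 18 fell and 2 rose. NCOA4, the receptor that takes ferritin into autophagosomes, averaged 400.5 CPM in lysate, against 138, 267 and 158 CPM in the immunoprecipitates (log2 fold change -1.09, SE 0.29, edgeR adjusted p = 0.125). TFR2, a transferrin receptor, averaged 14.7 CPM in lysate, against 5.67, 7.44 and 4.88 CPM, and SLC39A8, a zinc and iron importer, averaged 86.0 CPM against 30.4, 50.1 and 15.6 CPM. These 3 have the lowest p of the list, in which each immunoprecipitate was below each lysate for 6 of 18 genes and above for 1, against 17.7% and 13.4% of all tested genes.

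Promoters of lipid peroxidation had the lowest median of the 9 pathway lists without the library labelled 2, -1.45, with 12 of 13 lower and 0 higher, and -0.59 over all 6 libraries. ACSL4, which loads polyunsaturated fatty acids for membrane lipids, averaged 231 CPM in lysate, against 92.6, 191 and 91.0 CPM in the immunoprecipitates. PEBP1, a partner of lipoxygenases, averaged 95.9 CPM against 30.3, 85.3 and 33.7 CPM, and ALOX5, a lipoxygenase of myeloid cells, at 13.9 CPM against 3.93, 8.05 and 1.88 CPM. The neutrophil marker sum, given above, had the same order of immunoprecipitates, and its part in the ALOX5 values was not tested.

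The other suppressors of ferroptosis had a median of -0.34 over all 6 libraries. Without the library labelled 2, 8 of 15 were lower and 4 higher, where 27.2% and 23.9% of all tested genes were. Each immunoprecipitate was below each lysate for 6 of the 15 and above for 4, against 17.7% and 13.4% of all tested genes. The genes named next have the lowest p of the list, and all of them were lower. SCD, which makes monounsaturated fatty acids, averaged 1333 CPM in lysate, against 330.4, 686 and 327 CPM in the immunoprecipitates (edgeR adjusted p = 0.101). MBOAT2, an acyltransferase of membrane lipids, averaged 109 CPM against 51.8, 68.2 and 57.1 CPM (edgeR adjusted p = 0.0880), and TXNDC12 at 152 CPM and at 71.0, 97.2 and 82.7 CPM (edgeR adjusted p = 0.0991). In the thioredoxin and peroxiredoxin list, PRDX3 of mitochondria averaged 234 CPM against 63.6, 142 and 69.6 CPM, TXNIP, the thioredoxin inhibitor, at 914 CPM against 496, 924 and 555 CPM, and TXN2 at 55.6 CPM and at 19.01, 58.5 and 26.5 CPM. That list had a median of -0.41, and -1.03 with 10 of 12 lower and 1 higher without the library labelled 2.

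Genes that make selenoproteins, the class of GPX4 and TXNRD1, had a median of 0.20 over all 6 libraries and, without the library labelled 2, of -0.28 with 4 of 9 lower and 3 higher. SECISBP2L averaged 77.4 CPM in lysate, against 42.3, 56.4 and 37.7 CPM in the immunoprecipitates. PSTK, a kinase of selenocysteine tRNA, averaged 8.18 CPM against 5.27, 3.59 and 4.66 CPM, and EEFSEC, the selenocysteine elongation factor, at 19.5 CPM against 5.81, 17.6 and 5.99 CPM. SECISBP2L, PSTK and EEFSEC have the lowest p of the list. All 3 lay below their lysate mean, whereas the list's median over all 6 libraries was positive. Among close relatives of the 10 genes, GPX1 averaged 116 CPM in lysate, against 53.0, 115 and 45.6 CPM, NQO2 at 16.0 CPM and at 11.8, 36.1 and 24.4 CPM, and SLC7A5, an amino acid transporter that also pairs with SLC3A2, at 55.6 CPM against 29.3, 605 and 22.3 CPM. SLC7A5, SLC3A2 and SLC7A11 were each highest in the library labelled 2. Without that library, 4 of 8 relatives fell and 1 rose.

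**Figure D5:**
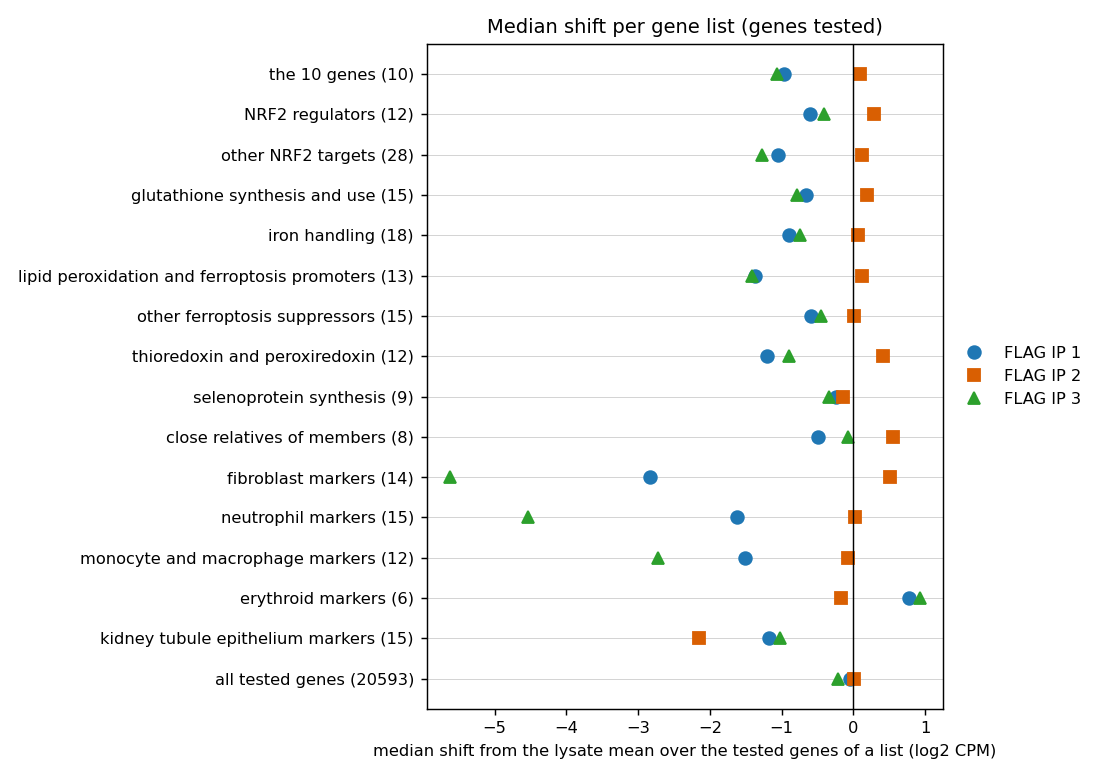
Median shift from the lysate mean (log2 CPM, horizontal axis) over the tested genes of each list, in the 3 FLAG immunoprecipitates; the number of tested genes is in brackets. Each pathway list lies below 0 in immunoprecipitates 1 and 3. Fibroblast, neutrophil and macrophage markers are also low there, while erythroid markers lie above 0, at 0.78 and 0.93. The median of the kidney tubule markers, though not their sum, is lowest in the library labelled 2.

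The median shift of the 10 genes was -0.97, 0.09 and -1.06 in immunoprecipitates 1, 2 and 3, against -0.05, 0.00 and -0.21 over all tested genes. The median shift of the kidney tubule markers was -1.17, -2.15 and -1.02. SQSTM1, the autophagy receptor p62 that binds KEAP1 and is itself an NRF2 target, had the pattern of NQO1 and TXNRD1, with 293 to 306 CPM in lysate against 152, 424 and 154 CPM in the immunoprecipitates, and was also chosen after its values were seen.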

How the data were processed

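RNA of HK2 cells was measured in 6 libraries, grouped by their titles. Gene and transcript tables hold deposited counts, whole in every cell, and deposited FPKM, which divide by transcript length and library depth. GRCh38.p14, StringTie 2.1.6, HISAT2 2.2.1, cutadapt 1.9, edgeR and DESeq2 are listed in the submitters' processing notes, without their roles. The sources used here do not give the use of strand in counting.

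Counts were tested with edgeR (4.0.16, R 4.3.3; quasi-likelihood, TMM scaling, default filter), with Benjamini-Hochberg adjustment over all tested genes and a threshold of 0.05. SE is the log2 fold change over the square root of F. Shifts are log2 CPM with 0.5 added to counts. For transcript usage, diffSpliceDGE p-values were combined per gene by Simes' method. Alternatives were 3 other scalings, 2 other filters, DESeq2 1.42.0, the replicate number as a block, leaving out each library, and limma 3.58.1 on log2 of FPKM plus 1 or plus 0.1. Scripts were tested on simulated data. The genes and lists were chosen with earlier results of these data known. Named were all 10 genes, VMP1, the 3 genes of each pathway list with the lowest p, the nearest gene of each of the 10, and transcripts with a mean share of at least 10% in a group. The numbers were not taken as pairs, and the block is given as an alternative. Deviations of same-numbered libraries from their group means had r = -0.0011, -0.0479 and 0.0058 for numbers 1, 2 and 3. With 3 libraries per group and 1 of them far apart, these values cannot settle whether same-numbered libraries share a culture.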

Additional observations from a re-analysis of the deposited data

How the results depend on the processing

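Over all tested genes, 136 were called, 40 without an expression filter, 225 with a filter of 1 CPM in 3 libraries, 2521 of 22205 with DESeq2 (1559 higher and 962 lower, against 33 and 103) and 0 with the replicate number as a block (2658 had an unadjusted edgeR p below 0.05). Leaving out 1 library gave 0 to 11273 calls, and each of the 11273 came without the library labelled FLAG immunoprecipitate 2. Of the 10 genes, 0 were called at the other scalings, filters, FPKM pseudocounts and with the replicate block, 2 with DESeq2, and 0 to 7 with 1 library left out. Pathway genes called numbered 1, then 20 with DESeq2, 0 with the replicate block and 0 to 104 with 1 library left out. The 10 genes with transcript usage called numbered 0, with 0 to 2 on leaving out 1 library, and 0 with the replicate block. The median of the 10 was negative at each setting, from -0.98 to -0.21. The fold change of NQO1 turned positive with RLE scaling (0.043), upper quartile scaling (0.024), library totals (0.059), no filter (0.0045), the 1 CPM filter (0.054) and DESeq2 (0.013), and ranged from -1.71 to 0.40 with 1 library left out, positive without immunoprecipitate 1 or 3. With 1 library left out, SLC7A11 ranged from -0.42 to 0.47 and SLC7A5 from -1.10 to 2.49, negative without the library labelled 2, and GCLC from -0.18 to 0.32, negative without immunoprecipitate 3. Library totals moved the median of all tested genes from 0.06 to 0.19. The replicate block left the differences of the GCLC to GCLM and FTH1 to FTL ratios at 0.75 and 1.48 (exact p = 0.25 for both, the smallest 3 pairs allow), and leaving out 1 library gave 0.47 to 1.08 and 1.39 to 1.597. Levels per kilobase of the counts were not run, as no gene length is used here. Apart from what the alternatives' construction shows, the cause of each change was not tested. The lowest count of the 10 genes in any library was 854, for AIFM2.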
